A study of Mus musculus with 2 samples.

Results

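The 10 T-box transcription factor genes *Tbx1*, *Tbx2*, *Tbx3*, *Tbx4*, *Tbx5*, *Tbx15*, *Tbx18*, *Tbx20*, *Tbx21* and *Eomes* were described by their accessible chromatin in the embryonic mouse heart. They were chosen by name from the 21938 protein-coding genes of the GENCODE M21 annotation on mm10. The list leaves out 7 other annotated T-box genes. ATAC-seq, in which a transposase cuts and tags open DNA, was performed on wildtype FVB embryos at E11.5 in 2 replicates, each a pair of whole microdissected hearts. Both replicates form a single group, so no condition was compared, and regions open in a few cells cannot be told apart from regions weakly open in many. An accessible region is here a region shared by both replicates, meaning a peak of replicate 1 trimmed to the part covered by a peak of replicate 2. Its fold enrichment is the authors' value for read pileup at the peak summit over the genome-wide background.

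T-box proteins bind DNA through the T-box domain and act as activators or repressors of development. Tbx5 and Tbx20 drive the myocardial programme, Tbx2 and Tbx3 repress it in the atrioventricular canal and conduction system, Tbx18 marks the sinus horns and epicardium, and Tbx1 acts in pharyngeal progenitors that feed the outflow tract. These 6 genes were called cardiac. The 4 genes called non-cardiac have their best known roles elsewhere, Tbx4 in the hindlimb, Tbx15 in skeleton and skin, Tbx21 (T-bet) in T lymphocytes, and Eomes in gastrulation, neural progenitors and lymphocytes.

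The starts of the genes differed in accessibility. To set this beside their CpG content, the 150 bases before the outermost start are shown for 3 genes with a strong region there and for 3 with none. They are on the strand of the gene, from the GRCm38 reference, with each CpG dinucleotide in capitals.
Tbx20: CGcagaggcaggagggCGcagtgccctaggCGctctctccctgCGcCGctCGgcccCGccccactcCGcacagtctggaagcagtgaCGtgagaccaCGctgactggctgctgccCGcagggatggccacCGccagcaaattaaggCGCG
Tbx18: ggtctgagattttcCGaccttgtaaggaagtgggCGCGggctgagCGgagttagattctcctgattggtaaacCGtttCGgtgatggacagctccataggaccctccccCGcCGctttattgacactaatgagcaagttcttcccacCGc
Tbx3: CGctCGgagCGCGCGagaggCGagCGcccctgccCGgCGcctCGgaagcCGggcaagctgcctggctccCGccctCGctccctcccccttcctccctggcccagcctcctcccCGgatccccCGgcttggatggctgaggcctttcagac
Tbx5: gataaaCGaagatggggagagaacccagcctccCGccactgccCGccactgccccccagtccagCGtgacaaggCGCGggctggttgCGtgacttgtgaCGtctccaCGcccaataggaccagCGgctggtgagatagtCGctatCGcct
Tbx4: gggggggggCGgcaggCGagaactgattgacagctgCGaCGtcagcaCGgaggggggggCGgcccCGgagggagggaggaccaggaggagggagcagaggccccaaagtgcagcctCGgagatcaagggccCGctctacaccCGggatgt
Tbx21: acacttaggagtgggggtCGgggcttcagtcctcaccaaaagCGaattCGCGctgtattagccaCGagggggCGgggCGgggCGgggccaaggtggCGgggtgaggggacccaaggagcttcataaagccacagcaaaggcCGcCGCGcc
The stretches of *Tbx20* (chr9:24774304-24774453, minus strand), *Tbx18* (chr9:87731261-87731410, minus strand) and *Tbx3* (chr5:119670519-119670668, plus strand) held 14, 9 and 15 CpGs. Those of *Tbx5* (chr5:119832518-119832667, plus strand), *Tbx4* (chr11:85886272-85886421, plus strand) and *Tbx21* (chr11:97115332-97115481, minus strand) held 12, 10 and 12. The count of CpGs in these bases did not separate open from closed starts.

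Sequence of the most accessible distal region is shown for every window but those of *Tbx21* and *Eomes*, to set strong regions beside that of *Tbx5*, the weakest shown. Distal means more than 1 kb from every annotated transcript start of any gene. The summit of replicate 1 with 100 bp on each side is printed on the plus strand, with matches to the searched motifs in capitals.
Tbx1: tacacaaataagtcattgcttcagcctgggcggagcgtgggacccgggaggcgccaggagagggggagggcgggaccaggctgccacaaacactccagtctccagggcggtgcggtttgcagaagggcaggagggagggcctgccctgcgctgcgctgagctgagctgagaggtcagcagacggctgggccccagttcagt
Tbx20: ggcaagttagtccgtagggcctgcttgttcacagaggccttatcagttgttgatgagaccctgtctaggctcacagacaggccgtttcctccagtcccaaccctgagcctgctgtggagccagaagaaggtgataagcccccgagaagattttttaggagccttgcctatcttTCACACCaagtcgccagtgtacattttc
Tbx18: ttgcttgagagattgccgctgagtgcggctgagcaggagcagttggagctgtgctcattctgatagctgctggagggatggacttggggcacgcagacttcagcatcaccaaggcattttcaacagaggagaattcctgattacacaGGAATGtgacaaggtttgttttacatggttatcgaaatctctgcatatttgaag
Tbx3: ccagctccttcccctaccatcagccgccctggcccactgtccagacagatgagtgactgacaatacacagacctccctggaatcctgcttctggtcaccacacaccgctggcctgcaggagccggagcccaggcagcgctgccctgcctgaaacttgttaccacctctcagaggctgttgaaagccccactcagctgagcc
Tbx15: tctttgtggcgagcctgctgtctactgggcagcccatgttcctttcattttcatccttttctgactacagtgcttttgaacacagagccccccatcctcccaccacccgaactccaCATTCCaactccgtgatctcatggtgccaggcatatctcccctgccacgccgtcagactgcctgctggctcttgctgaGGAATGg
Tbx2 and Tbx4: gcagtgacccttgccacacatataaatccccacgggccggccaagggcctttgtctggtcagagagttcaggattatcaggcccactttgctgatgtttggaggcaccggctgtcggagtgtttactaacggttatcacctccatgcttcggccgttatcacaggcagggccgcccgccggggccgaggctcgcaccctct
Tbx5: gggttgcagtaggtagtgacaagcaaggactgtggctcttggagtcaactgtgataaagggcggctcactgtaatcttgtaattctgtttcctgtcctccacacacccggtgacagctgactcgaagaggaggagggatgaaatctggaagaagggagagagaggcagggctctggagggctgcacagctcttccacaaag
These lie at chr16:18687021-18687221 in the window of *Tbx1*, chr9:24848341-24848541 for *Tbx20*, chr9:87608385-87608585 for *Tbx18*, chr5:119651691-119651891 for *Tbx3* and chr3:99183433-99183633 in the window of *Tbx15*. The sequence shared by the windows of *Tbx2* and *Tbx4* lies at chr11:85799853-85800053 and that of *Tbx5* at chr5:119857147-119857347. None of them touched an annotated exon.

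All 6 cardiac genes had an accessible region within 1 kb of an annotated start, and 2 of the 4 non-cardiac genes had one. Among all protein-coding genes, 67.6% had such a region. With so few genes, neither count was tested against this share. By single starts, 16 of 19 cardiac starts and 5 of 10 non-cardiac starts were accessible, beside 58.0% of all starts of protein-coding genes. *Tbx4* and *Tbx21* had no region shared by both replicates at any start.

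*Tbx20*, a regulator of myocardial growth, had the most accessible start of the family. Its region at chr9:24773506-24775384 (1879 bp) covered the outermost start, with 35.6-fold enrichment in replicate 1 and 30.2-fold in replicate 2 (32.9 ± 3.83, mean ± SD, n = 2). This value was higher than at 73.4% of the protein-coding genes with an accessible start. A pair of internal starts shared a weaker region at chr9:24769722-24771031, with a fold enrichment of 9.24 and 6.28. All 4 annotated starts of *Tbx20* were therefore accessible.

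*Tbx18* and *Tbx3* came next. The *Tbx18* region at chr9:87729185-87731698 was the longest at any T-box start (2514 bp) and covered both annotated starts, with 24.2-fold enrichment in replicate 1 and 22.4-fold in replicate 2 (23.3 ± 1.27, n = 2). The *Tbx3* region at chr5:119669988-119671178 (1191 bp) had 25.5 and 19.6 (22.6 ± 4.19, n = 2) and covered 3 of the 5 annotated starts. The remaining starts of *Tbx3* belong to non-coding transcripts and had no region within 1 kb. The replicates ranked *Tbx18* and *Tbx3* in opposite order, so these genes did not differ beyond the replicate spread. Both lay just under the median of 24.5 for protein-coding genes with an accessible start.

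*Tbx2*, which has a single annotated start, carried a region of 1094 bp at chr11:85832263-85833356. The enrichment was 9.51-fold in replicate 1 and 7.79-fold in replicate 2 (8.65 ± 1.21, n = 2). Only 12.9% of protein-coding genes with an accessible start had a lower value.

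*Tbx1* had many weak regions in place of a strong one. Its 4 starts, all accessible, were met by 7 regions with fold enrichments of 4.35 to 7.06 in replicate 1 and 3.77 to 6.28 in replicate 2. The highest mean was found at chr16:18587872-18588586, with 6.25 and 6.28. The outermost start lay inside a region at chr16:18590400-18590714, with 6.79 and 3.77. Of the 7 regions, 4 came from 2 long replicate 1 peaks that were each met by separate replicate 2 peaks, so they are not independent.

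*Tbx5*, which is central to atrial and septal development, had the weakest accessible start of the 8 genes that had one. Regions at chr5:119835070-119835519 and chr5:119836722-119837138 lay near its internal starts. The first had 5.43-fold enrichment in replicate 1 and 4.78-fold in replicate 2 (5.10 ± 0.464, n = 2), and the second 4.62 and 4.27. The outermost start of *Tbx5* had no shared region, and a peak with a fold enrichment of 4.62 near it was called in replicate 1 alone. The shared region nearest to that start, 4 bp long with 5.16 and 2.77, lay 1183 bp away. Only 3.82% of protein-coding genes with an accessible start had a lower value than *Tbx5*.

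Of the non-cardiac genes, *Tbx15* and *Eomes* were accessible at a start. The strongest *Tbx15* region, at chr3:99253580-99254549, covered an internal start and not the outermost one, with 10.6-fold enrichment in replicate 1 and 9.55-fold in replicate 2 (10.1 ± 0.736, n = 2). At the outermost *Tbx15* start the region was weaker, with 4.35 and 6.79. The *Eomes* region at chr9:118478482-118479539 had 10.3 and 8.30 (9.31 ± 1.43, n = 2), and all 3 *Eomes* starts were accessible. Both replicates ranked *Tbx15* over *Eomes* and *Eomes* over *Tbx2*. Each gene overlapped the next in its replicate values, while *Tbx15* and *Tbx2* did not overlap (at least 9.55 against at most 9.51).

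*Tbx4* and *Tbx21* differed in how far they were from an accessible region. The nearest region to a *Tbx4* start lay 1162 bp away, and 3 regions came within 2 kb of its starts, the strongest with a mean fold enrichment of 5.70. A pair of these regions share a replicate 2 peak, so they are not independent. The replicate 1 peak of the nearest region (4.89-fold) reached within 1 kb of a start before it was trimmed. The nearest region to the single *Tbx21* start lay 11559 bp away. A peak with a fold enrichment of 3.27 was called at the *Tbx21* start in replicate 2 alone.

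**Figure D1:**
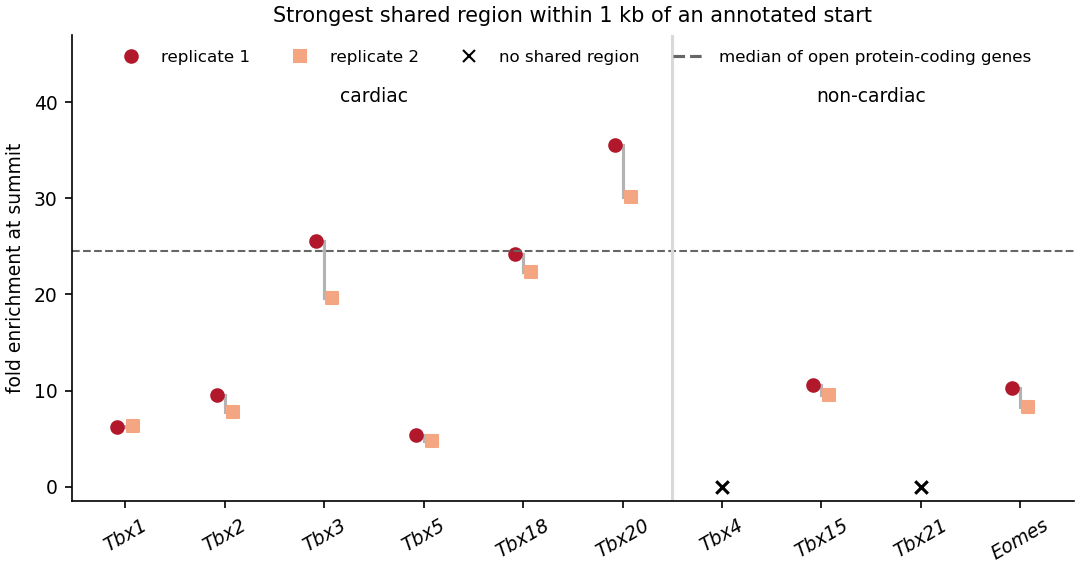
Fold enrichment of the strongest shared region within 1 kb of an annotated start of each T-box gene, with circles for replicate 1, squares for replicate 2 and crosses for genes without a shared region. The dashed line is the median of protein-coding genes with an accessible start (24.5); *Tbx20* is above it in both replicates, *Tbx18* lies just below it, *Tbx3* lies on either side of it, and 5 genes lie between 4.78 and 10.6.

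The median of the highest mean fold enrichment at the starts was 15.6 over the cardiac genes and 4.65 over the non-cardiac genes, with 0 for genes without a region, beside 14.6 over all protein-coding genes. Over the genes with an accessible start alone the medians were 15.6, 9.69 and 24.5, so the medians of both classes lay below that of all such genes. The cardiac genes ranged from 5.10 to 32.9, and *Tbx15* and *Eomes* lay inside that range. With genes without a region counted as 0, the difference in medians of 11.0 was 9.24 in replicate 1 alone and 7.92 in replicate 2 alone. *Tbx20*, *Tbx18* and *Tbx3* lay above both accessible non-cardiac genes, and *Tbx1*, *Tbx2* and *Tbx5* lay below both.

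CpG content was set beside these values. Over all protein-coding genes, the CpG observed over expected ratio within 500 bp of the outermost start had a median of 0.708 where the start was accessible and 0.179 where it was not. Of the T-box genes, 6 of 7 with a ratio of at least 0.6 at the outermost start were accessible there, among them *Tbx2* (0.756), *Eomes* (0.622) and *Tbx1* (0.604), and 1 of 3 with a lower ratio. The closed *Tbx21* start had a ratio of 0.761, while the ratios of *Tbx18*, *Tbx20* and *Tbx3* were 0.754, 0.628 and 0.821. Of the 10083 protein-coding genes with a ratio of at least 0.6, 94.5% were accessible at the outermost start, and *Tbx21* was among the rest. *Tbx4* and *Tbx5*, also without a region at the outermost start, had ratios of 0.512 and 0.426, a range (0.4 to 0.6) in which 81.5% of protein-coding genes were accessible there. The accessible outermost start of *Tbx15* had 0.364, a range (under 0.4) in which 21.6% of protein-coding genes were accessible there. Among the accessible starts, *Tbx2* and *Tbx18* had nearly the same ratio with a fold enrichment of 8.65 and 23.3.

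**Figure D2:**
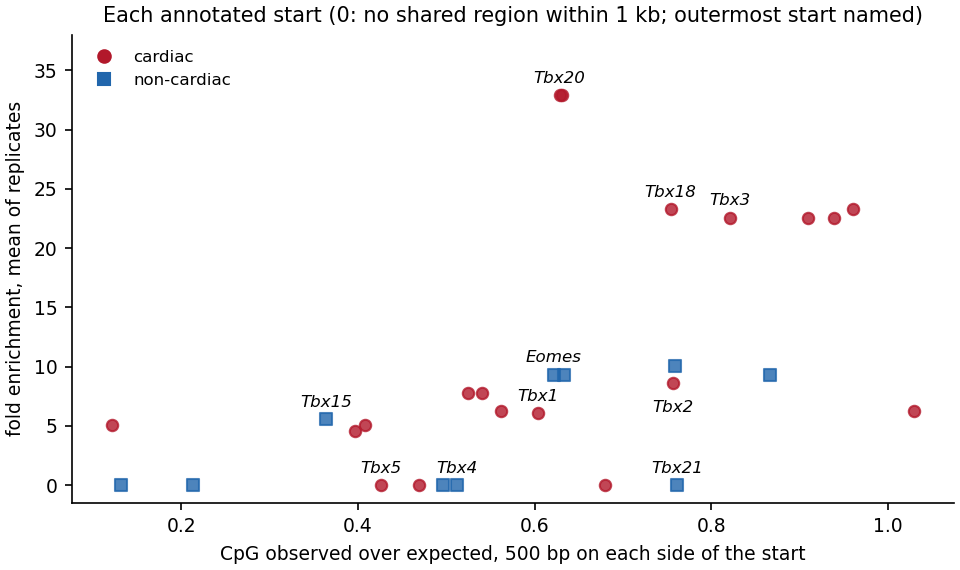
Each point is an annotated start of a T-box gene, by its CpG observed over expected ratio (500 bp on each side) and the mean fold enrichment of the strongest shared region within 1 kb, with 0 where there was none, circles for cardiac and squares for non-cardiac genes. *Tbx21* and *Tbx18* have nearly the same ratio at the outermost start (0.761 and 0.754) and a fold enrichment of 0 and 23.3.

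Beyond the starts, each gene was given a window of its body and 100 kb on each side. The 10 windows held 133 different accessible regions, of which 19 lay at a start of the T-box gene itself, 30 only at starts of other genes and 84 were distal. Density did not separate the classes. The median was 6.41 regions per 100 kb over the cardiac genes (2.34 to 10.01) and 6.47 over the non-cardiac genes (4.46 to 8.18), beside 5.41 over all protein-coding genes. For distal regions the medians were 4.73, 3.84 and 2.97 per 100 kb.

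*Tbx1* and *Tbx2* had the densest windows, with 21 and 20 regions, and *Tbx3* the sparsest, with 5. Only 22.0% of protein-coding genes had a lower density than *Tbx3*. The windows of *Tbx3*, *Tbx5* and *Tbx18* hold 0 other protein-coding genes and had 5, 12 and 15 regions, while that of *Tbx1* holds 5 such genes and that of *Tbx21* 8. Of the 13 regions in the *Tbx21* window, 8 lay at starts of other genes, and the strongest, with fold enrichments of 43.5 and 44.0, lay at the start of *Kpnb1*, an importin gene. The strongest region of the *Tbx15* window lay at *Wars2* (35.3 and 31.4), and that of the *Eomes* window at *Golga4* (23.1 and 25.4). The windows of *Tbx2* and *Tbx4* overlap, and all 16 regions of the *Tbx4* window were also counted for *Tbx2*.

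**Figure D3:**
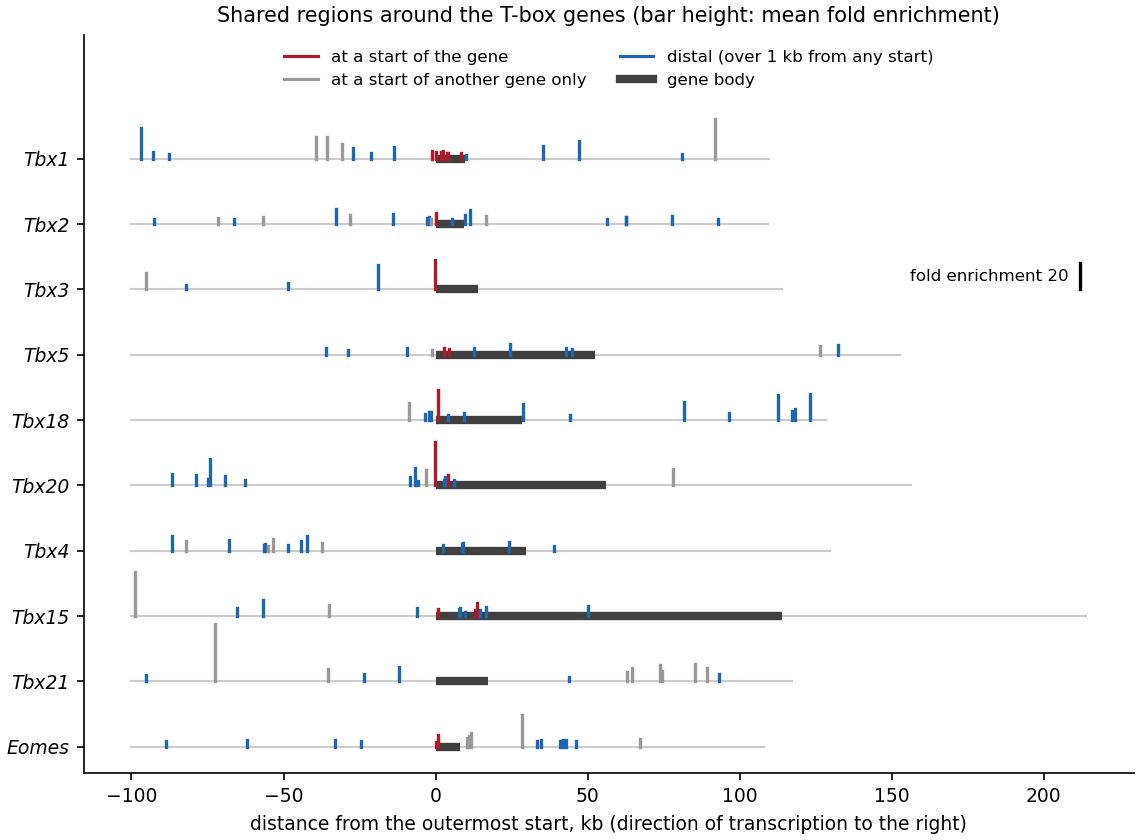
Shared regions around each T-box gene, by distance from its outermost start in kb with the direction of transcription to the right. Bar height is the mean fold enrichment of the replicates, red bars lie at a start of the gene, grey bars only at starts of other genes and blue bars are distal. *Tbx18* and *Tbx20* have tall blue bars on 1 side of the gene, downstream and upstream, and the side of *Tbx3* that faces *Tbx5* is empty.

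Assigning each region of the genome to its nearest protein-coding start set *Tbx18* and *Tbx20* apart from the other members. *Tbx18* was the nearest gene of 28 regions and *Tbx20* of 24, followed by *Tbx15* with 14 and *Tbx5* with 12. *Tbx3* and *Eomes* had 10 each, *Tbx1* 9, *Tbx2* and *Tbx4* 5 each, and *Tbx21* 1. The median over all protein-coding genes was 2, and 97.8% and 97.0% of them had fewer regions than *Tbx18* and *Tbx20*. The distances to the neighbouring protein-coding genes were 447 kb and 596 kb for *Tbx18*, 21.8 kb and 315 kb for *Tbx20*, and 905 kb and 148 kb for *Tbx3*, and their part in the counts was not tested. The counts of *Tbx20* were one-sided, with 19 of its 24 regions upstream of the outermost start.

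**Figure D4:**
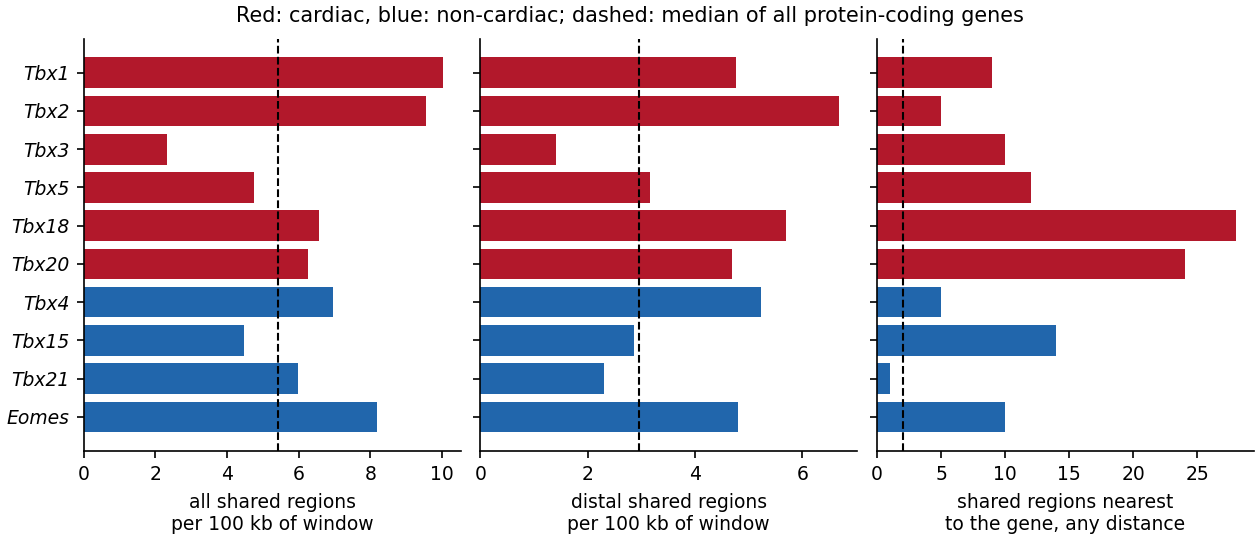
Accessible regions of each T-box gene, as all regions per 100 kb of window, distal regions per 100 kb, and regions whose nearest protein-coding start is that of the gene. Bars start at 0, cardiac genes are red and non-cardiac genes blue, and dashed lines mark the medians of all protein-coding genes (5.41, 2.97 and 2); only in the right panel do *Tbx18* (28) and *Tbx20* (24) exceed all others.

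The most accessible distal region of the *Tbx20* window, at chr9:24848097-24848702, lay 73.8 kb upstream, with 22.3-fold enrichment in replicate 1 and 18.1-fold in replicate 2. Its mean exceeded that of 97.9% of the 74141 distal regions. The next lay 6.06 kb upstream at chr9:24780366-24781632, with 13.6 and 13.3, and the third 86.2 kb upstream with 8.69 and 8.55. All 12 distal regions of the window were nearest to *Tbx20*.

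In the *Tbx18* window all 13 distal regions were nearest to *Tbx18*. Its protein-coding neighbours lie 447 kb and 596 kb away, so this was fixed in advance. Of the 13 regions, 8 lay downstream of the gene. The strongest was at chr9:87607656-87608752, 122 kb from the start, with a fold enrichment of 22.0 and 17.8. A similar region at chr9:87618155-87618865, 112 kb from the start, had 22.0 and 16.8, and the third, 80.6 kb from the start, had 14.9 and 13.3. The first and second overlapped in their replicate values. All 3 lay outside the gene body.

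*Tbx3* had 3 distal regions in its window, all upstream. The one at chr5:119651321-119652055, 18.6 kb from the outermost start, had 19.3-fold enrichment in replicate 1 and 17.6-fold in replicate 2, near the 25.5 and 19.6 of the *Tbx3* start itself. Its summits in the replicates lay 5 bp apart. The other two had means of 4.999 and 3.54. A further region of the window, at chr5:119575002-119575648 and 95.0 kb upstream, had 14.7 and 10.1 and lay at a start of the antisense RNA gene *Tbx3os1*. Beyond the window *Tbx3* was the nearest gene of 5 more upstream regions, with means of 3.91 to 8.75.

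*Tbx5* had 8 distal regions, and none reached a mean of 10. The strongest was intronic, at chr5:119857053-119857356, 20.9 kb from the nearest start of the gene, with 9.51 in replicate 1 and 6.28 in replicate 2. The next lay downstream, 129 kb from the nearest start, with 8.96 and 5.53. Of the 8 regions 4 lay in the gene body, 3 upstream and 1 downstream. No region of the *Tbx5* window, at a start or elsewhere, reached a fold enrichment of 10 in either replicate.

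*Tbx3* and *Tbx5* are neighbours on chromosome 5, transcribed in the same direction with 148 kb between them. Their windows overlap by 52.1 kb, and no accessible region lay in both. Between the end of the *Tbx3* start region and the first region before *Tbx5* there was a stretch of 125 kb (chr5:119671179-119796439) without a shared region, in which 3 peaks were called in replicate 1 alone and 1 in replicate 2 alone. This stretch, which holds nearly the whole body of *Tbx3*, was singled out after its values were seen. *Tbx2* and *Tbx4*, neighbours on chromosome 11, have 44.5 kb between them.

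For *Tbx2* and *Tbx4* the same distal regions ranked highest, at chr11:85799533-85800300 (11.7 in replicate 1 and 11.6 in replicate 2) and chr11:85843134-85844942 (11.4 and 10.8). The first lies 32.3 kb upstream of *Tbx2* and 86.1 kb upstream of *Tbx4*. Neither was nearest to a T-box start. The first lay 1.52 kb from its nearest protein-coding start, and the second 5.39 kb from its own. The 5 distal regions that were nearest to *Tbx4* had fold enrichments of at most 8.15 in replicate 1 and 6.79 in replicate 2.

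*Tbx1* had a strong distal region at chr16:18686881-18687854, 96.2 kb upstream, with 26.6 in replicate 1 and 19.9 in replicate 2, higher than 98.8% of distal regions. Its nearest protein-coding start was that of *Sept5*. The next in rank lay downstream, nearest to *Gnb1l*, 39.3 kb away with 17.1 and 10.8 and 27.6 kb away with 11.1 and 8.30. Of the 10 distal regions in the *Tbx1* window only 2 were nearest to *Tbx1*, and the stronger of these, 13.5 kb upstream, had 8.96 and 9.80. In the *Tbx15* window the strongest distal region, at chr3:99183336-99183912, lay 56.5 kb upstream with 12.8 and 11.3, and its nearest protein-coding start, 42.2 kb away, was that of *Wars2*.

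The single region nearest to *Tbx21*, at chr11:97126890-97127744, had 10.1 in replicate 1 and 12.1 in replicate 2, with summits 4 bp apart. It lay 11.6 kb upstream of a start without an accessible region. *Eomes* had an accessible start and 10 distal regions. The one with the highest mean, at chr9:118444786-118445267, reached only 5.70 and 4.78. This mean exceeded that of 41.8% of distal regions. A stronger region nearest to *Eomes*, at chr9:118489402-118490098, had 11.95 and 9.55 and lay 10.5 kb from its nearest start. It was not counted as distal because it lay at a start of *Gm33460*.

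Taking the 84 distal regions of all windows, 13 (15.5%) had a mean fold enrichment of at least 10, beside 15.7% of all distal regions. These shares were alike. Of the 13 regions, 4 were in the *Tbx18* window, and the windows of *Tbx5* and *Eomes* held none.

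**Figure D5:**
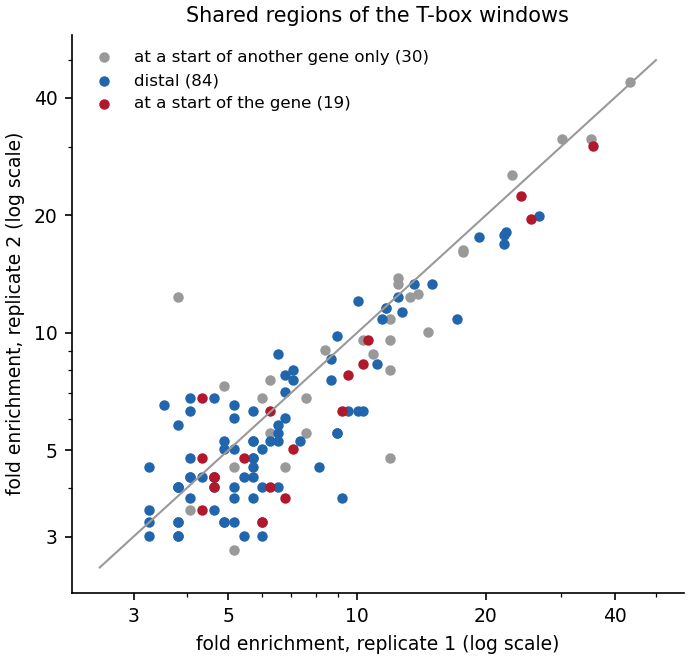
Fold enrichment of the 133 shared regions of the T-box windows in replicate 1 and replicate 2, both axes logarithmic, with the line of equal values. Red points are regions at a start of the T-box gene (19), grey points lie only at starts of other genes (30) and blue points are distal (84). The points follow the line, and the grey point far above it at 3.803 and 12.3 lies at the start of *Lrrc46* and *Mrpl10* in the *Tbx21* window. Its 12.3 is that of a longer replicate 2 peak (1446 bp), which has its summit outside this region and also overlaps a neighbouring region.

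The log2 ratio of replicate 2 to replicate 1 over these 133 regions had a median of -0.17 and an SD of 0.42, beside -0.11 and 0.53 over all 98924 shared regions. For the strongest start region of each gene the ratio of replicate 1 to replicate 2 ran from 0.994 for *Tbx1* to 1.30 for *Tbx3*. Weaker start regions varied more, such as 6.79 and 3.77 at the outermost *Tbx1* start and 4.35 and 6.79 at that of *Tbx15*. The order of *Tbx20* over *Tbx18* and *Tbx3*, and of these over the other genes, was the same in both replicates. The lists carry no read totals, so the depth is unknown and no counting interval was computed.

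Motifs were searched on both strands of the replicate 1 summit of each region with 100 bp on each side. The 133 regions have 127 different summits in replicate 1, since 1 long peak can be split into several regions. The T-box core letters GGTGTGA were found in 7 of the 133 regions (5.26%, beside 3.17% of 98850 regions on assembled chromosomes), among them the strongest distal region of *Tbx20*, where it stands reversed at position 174 of the printed sequence. A pair of these 7 regions, downstream of *Eomes*, share a summit, which leaves 6 different sequences. The GATA letters AGATAA were in 18 regions (13.5%, beside 17.2%), the NKX2 letters TNAAGTG in 11 (8.27%, beside 11.6%) and the MEF2 letters, CTA and TAG with 4 bases of any kind between them, in 2 (1.504%, beside 4.31%). The TEAD letters GGAATG were in 14 regions (10.5%, beside 14.8%), and in 12 of the 84 distal regions (14.3%, beside 16.5% of all distal regions). A match stands in the strongest distal region of the *Tbx18* window (position 148), and a pair of matches in that of *Tbx15* (positions 117 and 195). Of the 13 distal regions with a mean of at least 10, 4 held TEAD letters (beside 16.1% of the 11614 such regions of the genome), 3 of them in the *Tbx18* window. In the same 13 regions, 2 held GATA letters (beside 26.2%), 2 NKX2 (beside 12.9%), 1 the T-box letters (beside 3.50%) and 0 MEF2 (beside 4.71%). These shares are descriptions of letters in short windows, and the counts are small.

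Markers fixed for the tissue were read at their starts in the same way. All 8 cardiomyocyte genes, among them *Nkx2-5*, *Myh6* and *Tnnt2*, were accessible, with mean fold enrichments of 10.6 to 35.2, as were 4 of 4 endothelial genes (4.33 to 15.8) and 3 of 3 epicardial genes (7.44 to 16.4). Of the blood genes 3 of 4 were accessible (4.72 to 24.2), as were 2 of 3 neural genes (*Sox1* with 6.91 and *Tubb3* with 10.3), 1 of 3 skeletal muscle genes (*Myod1* with 5.21) and 1 of 3 lymphocyte genes (*Rag1* with 5.18), beside 67.6% of all protein-coding genes. The liver and pluripotency genes were not. *Tbx5*, *Tbx1* and *Tbx2* (5.10 to 8.65) had lower values at their starts than the 8 cardiomyocyte genes. They lay above *Pecam1* (4.33) but below the other endothelial genes, and *Tbx2* lay in the epicardial range. Their values overlapped those of the accessible markers of other tissues, since *Myod1* and *Rag1* exceeded *Tbx5*, *Sox1* exceeded *Tbx5* and *Tbx1*, and *Tubb3* exceeded all 3. The part of cell composition in this was not tested.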

How the data were processed

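ATAC-seq peak lists of 2 replicates of wildtype FVB hearts at E11.5, grouped by the labels, were analysed. The authors trimmed the reads (Trim Galore 0.6.6), aligned them to GRCm38/mm10 (Bowtie2 2.4.2), filtered out duplicates and poorly mapped reads (SAMtools 1.12), and ran MACS2 on each replicate with no local background. Such filtering lowers coverage of repeats. In the deposited lists fold enrichment is a ratio at the summit, the p- and q-values are deposited as −log10 values, and the authors' score is the scaled −log10 q-value. The largest p-values, 4.76e-04 and 0.00104, lie below the limit that the methods state, and the shortest peak of replicate 1, 200 bp, is longer than the stated extension, so the exact limits of peak calling are uncertain. The lists give no read totals.

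Shared regions were made with bedtools 2.31.1 (at least 1 bp) and have the fold enrichment of the highest overlapping peak in each replicate. The shortest region of the T-box windows was 4 bp. Replicate 1 had 118027 peaks, replicate 2 had 114783, and 98924 regions were shared, of which 85.3% had fold enrichments within 1.5-fold. Starts, at 1 kb on each side, and genes came from GENCODE M21, and sequences from the GRCm38 reference (C57BL/6J). The T-box members, the classes and all lists were chosen with earlier results of these data known. Names were drawn from the members, regions at their starts, up to 3 of the strongest distal regions per window, and neighbours with a region at their start, and the remaining regions are given as counts and ranges. The exceptions, named after their values were seen, are the nearest regions of *Tbx1*, *Tbx4* and *Tbx21*, regions beyond the windows, counts of regions by nearest gene, and the stretch between *Tbx3* and *Tbx5*. No test was run, since there was a single group and genes are not replicates. The alternatives were a q-value limit, a reciprocal overlap, each replicate alone, other windows, coding starts, another class for *Tbx1*, and other ways to count regions. The overlap code was tested on simulated data. Software was Python 3.11.15 with pandas 2.3.3, NumPy 2.4.6, pysam 0.24.0 and Matplotlib 3.10.9, and samtools 1.23.1.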

Additional observations from a re-analysis of the deposited data

How the results depend on the processing

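The counts of genes with an accessible start stayed within 1.5 times of 6 cardiac and 2 non-cardiac genes under every alternative run. At a q-value of at most 1e-10 *Tbx5* lost its region, leaving 5 cardiac genes, and with start windows of 2 kb *Tbx4* gained one, giving 3 non-cardiac genes. With a replicate left out the non-cardiac count was 3, from *Tbx21* in replicate 2 alone and *Tbx4* in replicate 1 alone. The difference in median fold enrichment at starts (11.0) was 16.3 with *Tbx1* counted as non-cardiac, 8.10 with start windows of 2 kb, and 7.92 to 9.24 with a replicate left out. The density difference (-0.07 regions per 100 kb) had no stable sign. It was -0.72 with *Tbx1* counted as non-cardiac, -0.67 with a reciprocal overlap of at least 50%, 0.74 with flanks of 50 kb, 0.76 at a q-value of at most 1e-10, 0.89 for distal regions only, 1.68 for regions nearest to the gene, and 0.71 to 1.24 with a replicate left out. In base pairs it was 690 bp per 100 kb. The causes of these shifts were not tested. No paired analysis was possible because both replicates belong to a single group. Without read totals, depth limits at weak starts such as those of *Tbx5* and *Tbx21* are unknown.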

Other observations

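Outside the 10 genes, the other annotated T-box genes were accessible at a start in 4 of 7 cases, beside 67.6% of all protein-coding genes. *Mga*, a broadly expressed MAX partner, had the highest value, 26.3-fold enrichment in replicate 1 and 26.6-fold in replicate 2. *Tbx6*, a gene of paraxial mesoderm, had 16.3 and 16.3 at a region of 1378 bp. *Tbr1*, a gene of cortical neurons, had 7.33 and 6.79, and *Tbx22*, a palate gene, had 5.43 and 5.53 at an internal start. *Tbx10*, *Tbx19* and *T* had no shared region at a start, although the outermost start of *T* (Brachyury, a gene of early mesoderm) had a CpG observed over expected ratio of 0.647. By single starts 11 of 29 were accessible, beside 58.0% of all starts of protein-coding genes.

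Some regions beyond the windows were named after their values were seen. *Tbx20* was the nearest gene of a region 114 kb upstream, at chr9:24888143-24889030, with 18.7 in replicate 1 and 18.6 in replicate 2. *Tbx18* was nearest to regions from 209 kb upstream to 226 kb downstream, and 9 of its 28 regions had a mean fold enrichment of at least 10. For *Tbx20* this held for 7 of 24, for *Tbx3* for 3 of 10, for *Tbx15* for 3 of 14, for *Eomes* for 1 of 10 and for *Tbx21* for 1 of 1, and for *Tbx5*, *Tbx1*, *Tbx2* and *Tbx4* for none. Over all shared regions the share was 26.7%. Counting distal regions alone, it was 7 of 26 for *Tbx18* and 5 of 21 for *Tbx20*, beside 15.7% of all distal regions, and these shares were not tested.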
